A study of Mus musculus with 6 samples.

Results

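Heparan sulfate proteoglycans are core proteins that carry heparan sulfate, a long sulfated sugar chain. The genes described here were chosen by their symbols: 6 glypicans, 4 syndecans, 2 proteoglycans of the basement membrane and 28 enzymes that build, sulfate, trim or cut the chain, 40 of the 32285 genes in the files. They were followed in single nuclei of mouse cortex across 11 cell types, 4 microglial states and 3 groups of mice. All mice were 7.5 months old and carried 5xFAD, a set of transgenes driven by the neuronal Thy1 promoter, which causes early amyloid deposition. The 5xFAD group carried nothing else by its label, the strain 5xFAD;M28L (here M28L) also carried the M28L variant of phospholipase C gamma 2, and the strain 5xFAD; P522R (here P522R) its P522R variant. Phospholipase C gamma 2 is a signalling enzyme of microglia and other immune cells, in which M28L has been linked to a higher and P522R to a lower risk of Alzheimer's disease. There was no group without 5xFAD. Each group had 2 libraries, numbered 2 and 3, and each library was loaded with equal numbers of nuclei from male and female mice, so that a library is a pool of animals.

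Heparan sulfate is started on a serine of the core protein by a xylosyltransferase, extended by the EXT polymerases in the Golgi, and then modified in patches: N-deacetylase/N-sulfotransferases act first, followed by the epimerase and by the 2-O-, 6-O- and 3-O-sulfotransferases. The pattern of sulfate groups sets which growth factors, guidance cues and lipoproteins bind. Outside the cell, the endosulfatases SULF1 and SULF2 remove 6-O-sulfates and heparanase cuts the chain. In the brain these proteoglycans sit on neurons, glia and vessel walls, take part in synapse formation and growth factor signalling, and are found in amyloid plaques.

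The libraries held 53326947 to 72288942 UMIs (unique molecular identifiers, each a captured RNA molecule) in 9269 to 13783 barcodes, with a median of 3842 to 4972 UMIs per barcode. After removal of called doublets, 60085 nuclei remained, of which 49088 fell in clusters named by markers and 10997 in 6 clusters left unnamed, the largest of them led by Enpp6 and carrying oligodendrocyte markers. Each pair of libraries shared 20 to 71 barcodes. The sort was for NeuN-negative nuclei, yet clusters carrying excitatory neuron markers held 2.09% ± 0.18, 2.38% ± 0.79 and 3.25% ± 0.38 (SD, n = 2) of the nuclei in 5xFAD, M28L and P522R. Clusters carrying inhibitory neuron markers held 6.002% ± 1.94, 5.46% ± 0.21 and 6.09% ± 1.62. Astrocyte-like nuclei were fewest in P522R, at 2.61% ± 1.33 of nuclei against 9.53% ± 1.30 in 5xFAD and 6.66% ± 0.815 in M28L. Levels below are in CPM, a gene's UMIs summed over the nuclei of a type in a library and scaled to a common total of UMIs. With this 3' chemistry and no length scaling, a level is compared between types for a given gene. The summary by gene length further below is the exception and sets levels of different genes side by side. Cell types came from clustering the same nuclei, with the 40 members left out of the genes used for it, so that differences between types and states are described and not tested.

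The results turn on a few members. Shown here for comparison are the 250 bases before a RefSeq transcription start (GRCm38.p6) of heparanase (Hpse, chr5:100719717-100719966, minus strand), glypican 5 (Gpc5, chr14:115091965-115092214, plus strand), the 3-O-sulfotransferase gene Hs3st4 (chr7:123982578-123982827, plus strand) and the N-deacetylase/N-sulfotransferase gene Ndst3 (chr3:123672478-123672727, minus strand), each written 5′ to 3′ with CG dinucleotides in capitals. They are shown because they span the range of CG counts among the members' windows. The Ndst3 window lies inside the gene as annotated in GENCODE vM21 (chr3:123526166-123690853, minus strand), as does its other window in the RefSeq table. The composition at the annotated 5′ end of Ndst3 is therefore not shown.
Hpse: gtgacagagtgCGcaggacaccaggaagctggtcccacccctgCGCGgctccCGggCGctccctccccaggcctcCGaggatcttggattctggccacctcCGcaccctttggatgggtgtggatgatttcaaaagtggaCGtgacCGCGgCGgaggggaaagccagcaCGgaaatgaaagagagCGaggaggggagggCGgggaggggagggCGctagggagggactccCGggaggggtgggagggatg
Gpc5: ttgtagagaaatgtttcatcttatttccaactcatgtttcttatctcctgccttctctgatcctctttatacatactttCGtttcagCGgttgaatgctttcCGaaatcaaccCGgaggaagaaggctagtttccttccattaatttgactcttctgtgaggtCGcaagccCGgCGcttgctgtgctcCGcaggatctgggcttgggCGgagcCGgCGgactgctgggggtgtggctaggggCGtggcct
Hs3st4: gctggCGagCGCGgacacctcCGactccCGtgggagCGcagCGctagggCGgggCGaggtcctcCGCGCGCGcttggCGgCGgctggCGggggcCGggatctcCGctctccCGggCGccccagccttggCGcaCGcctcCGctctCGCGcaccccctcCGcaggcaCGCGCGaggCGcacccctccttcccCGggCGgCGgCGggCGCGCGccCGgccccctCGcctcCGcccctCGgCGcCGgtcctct
Ndst3: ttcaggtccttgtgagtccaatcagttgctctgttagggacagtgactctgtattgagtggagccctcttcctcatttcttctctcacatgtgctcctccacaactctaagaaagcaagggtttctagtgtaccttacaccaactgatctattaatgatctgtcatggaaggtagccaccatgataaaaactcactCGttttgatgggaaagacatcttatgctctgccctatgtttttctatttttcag
The Hs3st4 window had 43 CG dinucleotides, a number that 0.712% of the 32851 mouse promoters in the RefSeq table reached. Hpse had 16 (25.4% of promoters had as many), Gpc5 had 12 (33.5%) and this Ndst3 window had 1 (92.1%). The median was 17.5 over the 36 promoters of the 31 members matched in the table and 6 over all promoters. Short motifs were searched on both strands: CACGTG, the core bound by TFEB-family and other basic helix-loop-helix factors, occurred in 3 of the 36 (8.33%, against 6.02% of all promoters), those of Extl2, Ext2 and Hs3st3a1. GAGGAA, a core of the myeloid factor PU.1, occurred in 8 of the 36 (22.2%, against 23.3%). Neither was in the Hpse window.

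Every member but Sdc1 reached at least 4 CPM in its highest cell type, and most were shared between types rather than restricted. Syndecan 4 (Sdc4), a transmembrane proteoglycan of cell adhesion, was the only member whose highest type was at least 4 times the next. It stood in astrocytes at 77.7 and 109 CPM in 5xFAD (replicates 2 and 3), 109 and 126 in M28L and 72.5 and 97.0 in P522R, a mean of 98.4 ± 20.3 (SD, n = 6). Border macrophages came next with 16.5 ± 5.98, a 5.96-fold lower level, and the ranges over libraries did not overlap. By their highest type, 9 members led in fibroblasts, 5 each in excitatory and inhibitory neurons, 4 each in border macrophages, endothelial cells and pericytes, 3 each in astrocytes and microglia, 2 in committed oligodendrocyte precursors and 1 in oligodendrocyte precursors. Some of these places were weak. B3galt6 had 15 UMIs in fibroblasts and was highest there in 1 of 6 libraries. Sdc1 had 11 in fibroblasts and Xylt2 had 42 in border macrophages, each highest in 3 of 6. Extl2 was highest in inhibitory neurons in 0 of 6. Pericytes and smooth muscle fell in a single cluster and were not separated, so that the name pericytes stands for both throughout. For 27 members the range over libraries in the highest type overlapped that in the next, and for 13 it did not. The percent map by cell type shows all 40 members.

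**Figure D1:**
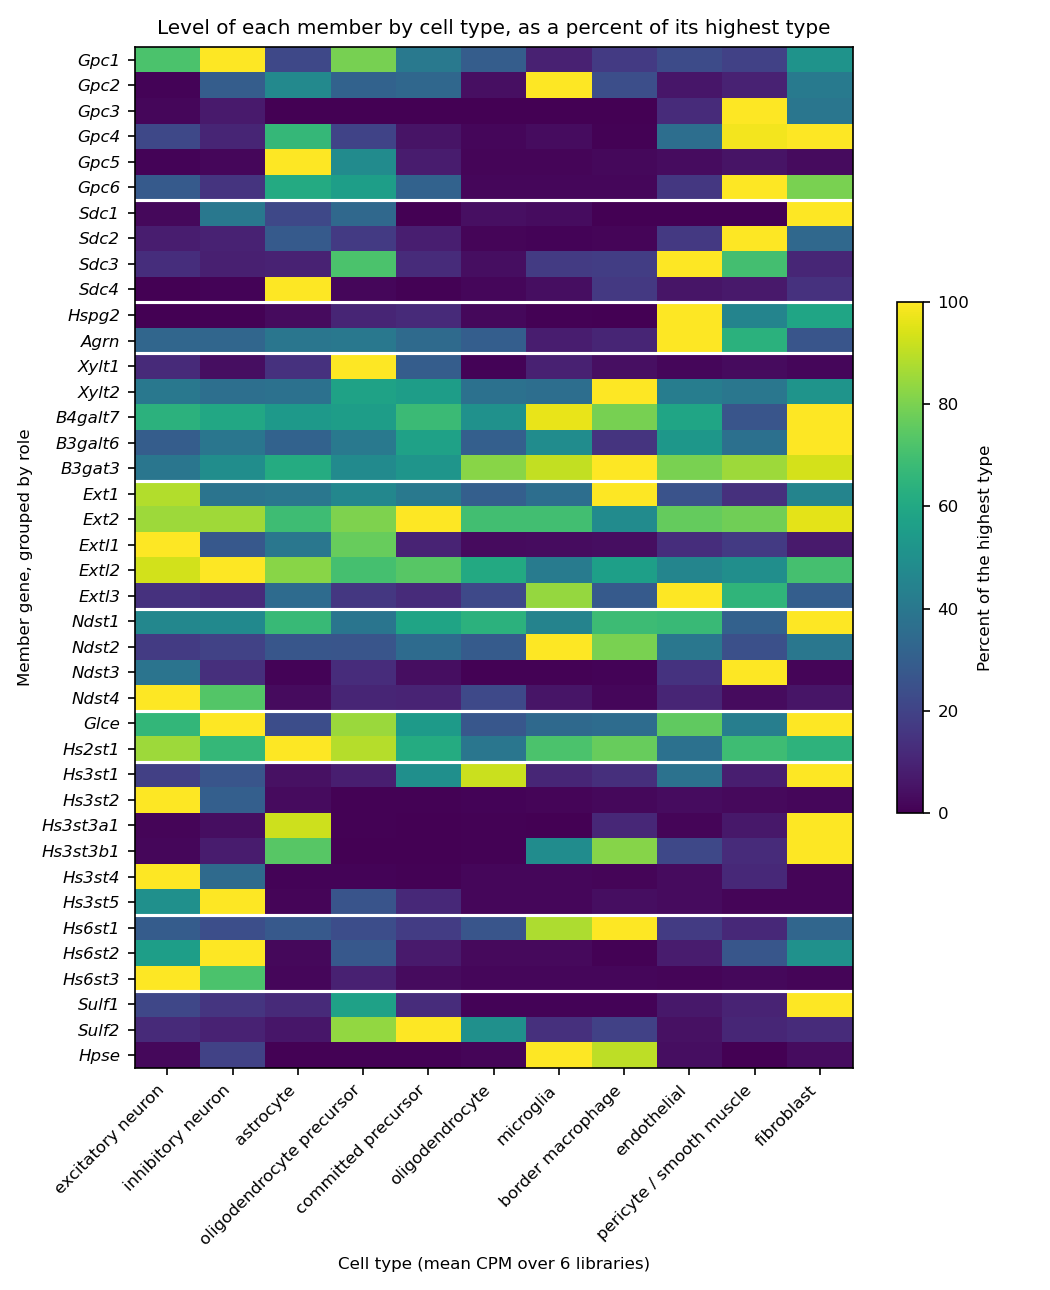
Mean level of each of the 40 members (rows, grouped by role) in 11 cell types (columns), as a percent of the gene's own highest type, from CPM averaged over 6 libraries. Bright cells off a gene's maximum show how few members stand out in a single type: Sdc4, with the next type 5.96-fold lower, is the clearest.

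Among the glypicans, which are anchored to the membrane by a lipid tail, Gpc5 was highest in astrocytes (10997 ± 971 CPM, SD, n = 6), followed by oligodendrocyte precursors (5313 ± 121), a 2.07-fold difference with no overlap between libraries. Within astrocytes it was not even. The main astrocyte cluster, led by Slc1a2 and Prex2, held 12484 ± 305 CPM of Gpc5, and a smaller cluster led by Myoc, Thbs4 and Gfap held 4022 ± 446. Gpc6, the paralogue that lies 400.1 kb downstream of Gpc5 on the same strand of chromosome 14, instead led in pericytes (1931 ± 160) and fibroblasts (1544 ± 111). Gpc3, an overgrowth syndrome gene, was highest in pericytes at 288 ± 44.6 CPM, 2.54-fold above fibroblasts, and Gpc4, its neighbour on chromosome X, was at 58.2 ± 14.8 in pericytes and 59.3 ± 6.03 in fibroblasts. Gpc2 was low throughout, with its highest mean, 15.1 ± 2.08, in microglia. Gpc1 reached 12.1 ± 3.40 in inhibitory neurons, a level whose range overlapped that of oligodendrocyte precursors.

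Of the other syndecans, Sdc2 was highest in pericytes at 527 and 745 CPM in 5xFAD, 588 and 675 in M28L and 702 and 409 in P522R (mean 608 ± 125), and stood at 206 ± 42.7 in fibroblasts. All 6 pericyte values were above all 6 fibroblast values. Sdc3, the neural syndecan, was at 110 ± 25.4 in endothelial cells and 78.6 ± 6.22 in oligodendrocyte precursors, with overlapping ranges. Sdc1, the epithelial and plasma cell syndecan, had at most 1.90 ± 1.92 CPM, in fibroblasts, from 11 UMIs over the 6 libraries. Perlecan (Hspg2) and agrin (Agrn), the secreted proteoglycans of basement membranes, were both highest in endothelial cells, at 77.7 ± 7.71 and 182 ± 27.9 CPM, with Agrn 1.57-fold above pericytes.

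The enzymes that start the chain divided between a strongly patterned and a flat form. Xylt1, which adds the first xylose, was at 3332 and 3442 CPM in oligodendrocyte precursors of 5xFAD, 3369 and 3052 of M28L and 3330 and 3240 of P522R. Committed precursors had 971 ± 111 CPM, 3.39-fold less than the precursors' 3294 ± 135, and mature oligodendrocytes had 31.4, the lowest of the 11 types. The second xylosyltransferase, Xylt2, ranged only 2.75-fold over all types. The later linkage enzymes B4galt7, B3galt6 and B3gat3 were low and broad, with highest means of 11.9, 4.26 and 40.6 CPM. Among the polymerases and their relatives, Ext2 varied 2.07-fold across types (95.5 to 46.0 CPM), whereas its partner Ext1 varied 7.19-fold, from 1123 ± 158 in border macrophages to 156 in pericytes. Extl3, which adds the first heparan-specific sugar, was highest in endothelial cells (467 ± 82.0) and microglia (393 ± 34.5) and lowest in inhibitory neurons (56.8). Extl1 and Extl2 stayed at or under 19.7 CPM.

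Several sulfotransferases were divided by neuron type. The inhibitory class pooled clusters of different kinds, some of them not of cortical type by their leading genes, and its make-up varied by library. Cluster 23, led by Stac, Htr4 and Drd3, held 14 and 9 nuclei in 5xFAD, 46 and 32 in M28L and 119 and 108 in P522R. Hs3st4, long used as a marker of deep-layer cortical neurons, stood in excitatory neurons at 700 and 728 CPM in 5xFAD, 631 and 652 in M28L and 906 and 894 in P522R. Its mean of 752 ± 120 was 2.89-fold that of inhibitory neurons, 260 ± 56.8. Hs3st2 followed the same types, at 167 ± 23.0 against 50.8 ± 9.60, while Hs3st5 and Hs6st2 were higher in inhibitory neurons, at 220 ± 29.3 against 111 ± 14.3 and 171 ± 20.6 against 95.8 ± 5.56. Hs6st3 was high in both, at 1635 ± 99.4 and 1175 ± 253. Outside neurons, Hs3st3a1 was at 99.1 ± 15.7 in fibroblasts and 91.4 ± 9.32 in astrocytes, Hs3st1 at 94.4 ± 28.3 in fibroblasts and 86.9 ± 10.5 in oligodendrocytes, and Hs3st3b1 at 27.0 ± 16.4 in fibroblasts.

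Single neuronal clusters differed more than the classes did. Hs3st4 reached 2763 ± 256 CPM in excitatory cluster 22, of which it was the leading gene, and 285 ± 52.1 in excitatory cluster 8. In the same cluster 22, Hs6st3 was at 439 ± 199, against 1913 ± 151 in cluster 8 and 2727 ± 220 in inhibitory cluster 16, which was led by the striatal genes Rarb, Rgs9 and Drd2. Hs6st3 was at 43.7 ± 23.1 in inhibitory cluster 11, led by Dlx6os1, Igfbpl1 and other genes of young interneurons. Hs3st5 and Hs6st2 were both highest in inhibitory cluster 14 (409 ± 161 and 370 ± 62.6), led by Cpa6 and Adamts19. Ndst4 was at 152 ± 63.0 in inhibitory cluster 13, led by Reln among others, and at 2.98 ± 4.43 in cluster 22.

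**Figure D2:**
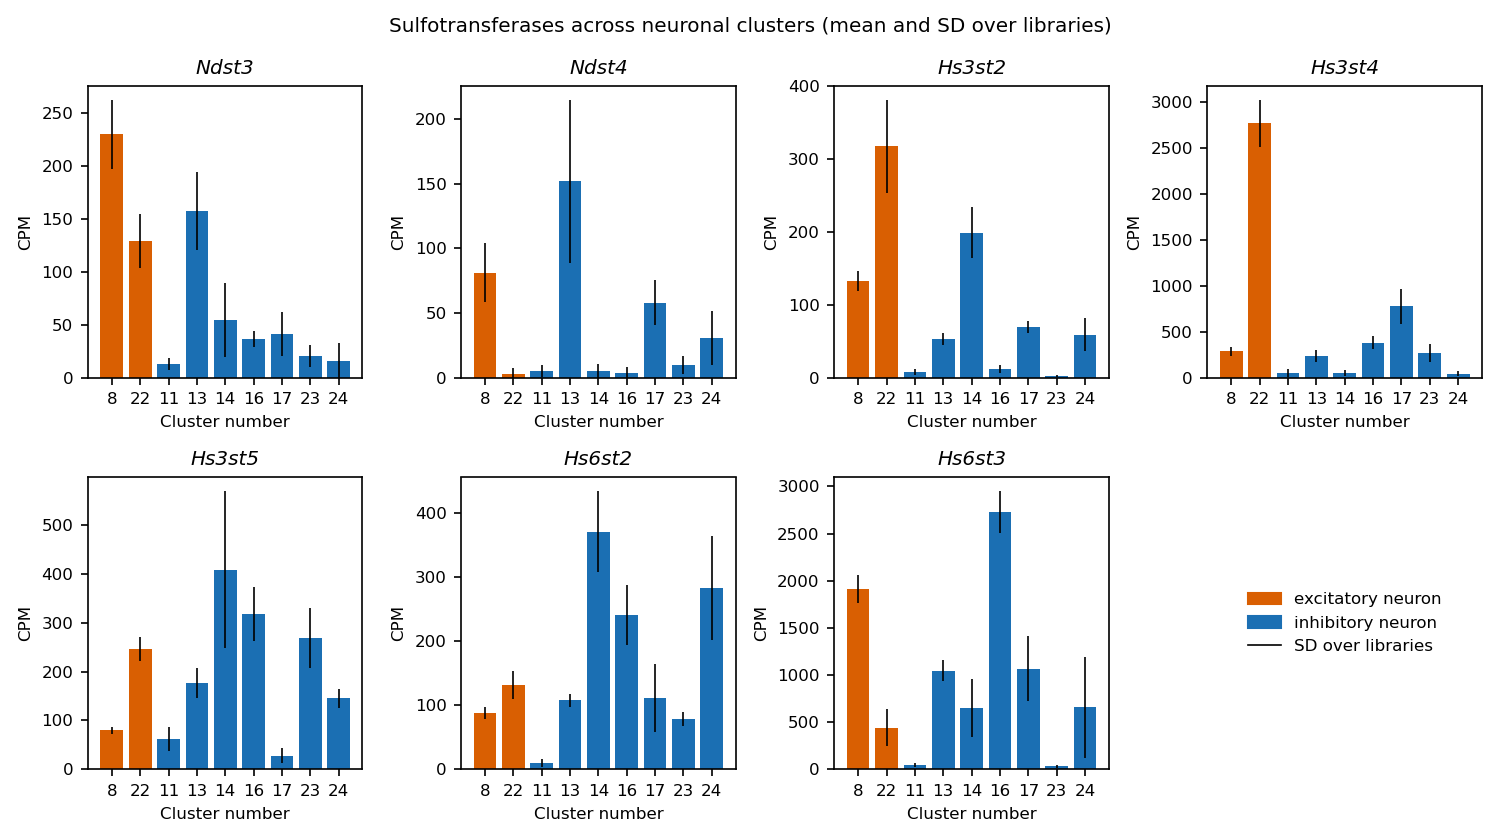
Level in CPM (vertical axis) of 7 sulfotransferase genes in each neuronal cluster (horizontal axis, cluster number), as bars of the mean with the SD over libraries; excitatory clusters are orange and inhibitory clusters blue. Hs3st4 peaks in cluster 22 at 2763 CPM, where Ndst4 is near 0, and Hs6st3 peaks in cluster 16 at 2727 CPM.

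The N-deacetylase/N-sulfotransferases, which set where later sulfation can occur, also differed. Ndst3, whose sparse CG window is printed above, was highest in pericytes, at 589 and 519 CPM in 5xFAD, 588 and 498 in M28L and 658 and 437 in P522R. The mean of 548 ± 78.5 was 2.60-fold that of excitatory neurons (211 ± 23.6), and the 2 sets of libraries did not overlap. Ndst1 and Ndst2 were broad, with highest means of 73.4 ± 12.8 in fibroblasts and 43.7 ± 3.71 in microglia. Ndst4 was at 66.9 ± 20.6 in excitatory and 49.1 ± 10.3 in inhibitory neurons. Glce, the epimerase, was at 64.5 ± 8.25 in inhibitory neurons and 15.2 in astrocytes, and Hs2st1 at 222 ± 16.4 in astrocytes and 83.0 in endothelial cells. Hs6st1 was highest in border macrophages (73.2 ± 13.7) and microglia (64.3 ± 10.5).

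The endosulfatases separated by type. Sulf1 was highest in fibroblasts (298 ± 75.9 CPM) and oligodendrocyte precursors (171 ± 13.2) and at 2.70 in microglia. Sulf2 followed the oligodendrocyte lineage, with 358 ± 49.96 in committed precursors, 300 ± 19.6 in precursors and 179 ± 45.4 in oligodendrocytes. In the Gfap-led astrocyte cluster Sulf1 was at 113 ± 54.0 and Sulf2 at 74.3 ± 17.97, against 16.1 ± 5.64 and 8.85 ± 3.42 in the main one. Hpse was at 30.8 ± 15.01 in microglia and 27.7 ± 13.2 in border macrophages, with a median over types of 0.695.

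Fibroblast-like nuclei likewise held 2 clusters that divided the members. Gpc6 was at 953 ± 133 CPM (n = 6) in the cluster led by Ranbp3l and Slc6a20a and at 3031 ± 466 (n = 5) in that led by Bnc2 and Slc47a1. Hs3st1 was at 12.4 ± 4.32 and 261 ± 68.2 in the same clusters, and Hs3st3a1 at 143 ± 20.5 and 2.60 ± 3.62. The 2 3-O-sulfotransferases thus lay in different clusters of the type in which both were highest.

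Members that shared a profile over the 11 types were not always relatives. Over log2(mean CPM + 1), Pearson's r was 0.95 for Gpc6 and Sdc2, 0.93 for Hs3st2 and Hs3st4, 0.93 for Hs3st5 and Hs6st3 and 0.92 for Gpc4 and Sdc2, the highest of 780 pairs. Among other paralogues r was 0.76 for Hs3st3a1 and Hs3st3b1, 0.02 for Sulf1 and Sulf2 and -0.27 for Ext1 and Ext2. These values describe 11 types that share libraries and carry no test. Gene length moved with the level: the 10 members of 200 kb or more had a median highest-type level of 937 CPM and the other 30 a median of 73.3, and its part in the levels was not tested. Members ran from 3.18 kb (B3galt6) to 1433 kb (Gpc5, chr14:115092215-116525179, plus strand, GRCm38, GENCODE vM21), with a median of 92.7 kb.

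Microglia, the cells in which phospholipase C gamma 2 acts, were divided into homeostatic, Ccl6 Cd83 transitional, disease-associated and interferon-responsive nuclei by markers that held no member. Hpse, the enzyme that cuts heparan sulfate chains from within, stood in disease-associated microglia at 81.7 and 75.7 CPM in 5xFAD, 89.7 and 97.6 in M28L and 125 and 95.3 in P522R. Homeostatic microglia had 0.812 and 1.54 CPM in 5xFAD, 0 and 0 in M28L and 0.909 and 0 in P522R, from 6 UMIs in all against 776 UMIs in disease-associated microglia. No library of homeostatic microglia came near any of disease-associated microglia, with transitional (18.5 ± 4.35) and interferon-responsive nuclei (24.7 ± 10.5) between them. Median depth overlapped across libraries, at 2673 to 3765 UMIs per homeostatic and 3000 to 4446 per disease-associated nucleus. Within each library it was higher in disease-associated nuclei, from 3815 against 3765 in P522R replicate 2 to 4349 against 3209 in M28L replicate 3.

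Xylt1 showed the same order. In disease-associated microglia it was at 794 and 631 CPM in 5xFAD, 702 and 470 in M28L and 734 and 739 in P522R, and in homeostatic microglia at 48.7 and 66.1, 59.5 and 76.6, and 61.8 and 72.0. The lowest disease-associated library was above every homeostatic one, and transitional nuclei had 393 ± 74.3. The 8 markers of oligodendrocyte precursors, the type richest in Xylt1, summed to 266 to 314 CPM in disease-associated and 255 to 337 in homeostatic microglia.

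Sulf2 was at 13.7 ± 4.74 CPM in homeostatic and 98.4 ± 22.1 in disease-associated microglia, and Sdc3 at 11.04 ± 2.87 and 28.5 ± 4.79, higher in each case in all 6 libraries. Sdc3 was highest in interferon-responsive nuclei (64.5 ± 25.8). Smaller differences in the same direction in all 6 were those of Ext1 (393 ± 34.6 to 464 ± 22.4), Ndst1 (30.3 ± 3.94 to 39.7 ± 3.70) and Ndst2 (41.4 ± 5.30 to 51.6 ± 6.60). Hs6st1 was lower in disease-associated microglia in all 6 (87.7 ± 12.96 to 50.1 ± 15.5), as was Extl3 (451 ± 34.0 to 375 ± 22.4). Of the 30 members with at least 60 UMIs in these 2 states, 7 were thus higher in all 6 libraries and 2 lower in all 6, where 14.2% and 13.5% of the 12242 genes with as many UMIs were. Both shares describe states that were themselves clustered from these nuclei. The rest of the 30 did not keep a direction in all 6, among them Hs3st1, which was higher in 5 (3.28 ± 1.06 and 9.94 ± 4.68).

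**Figure D3:**
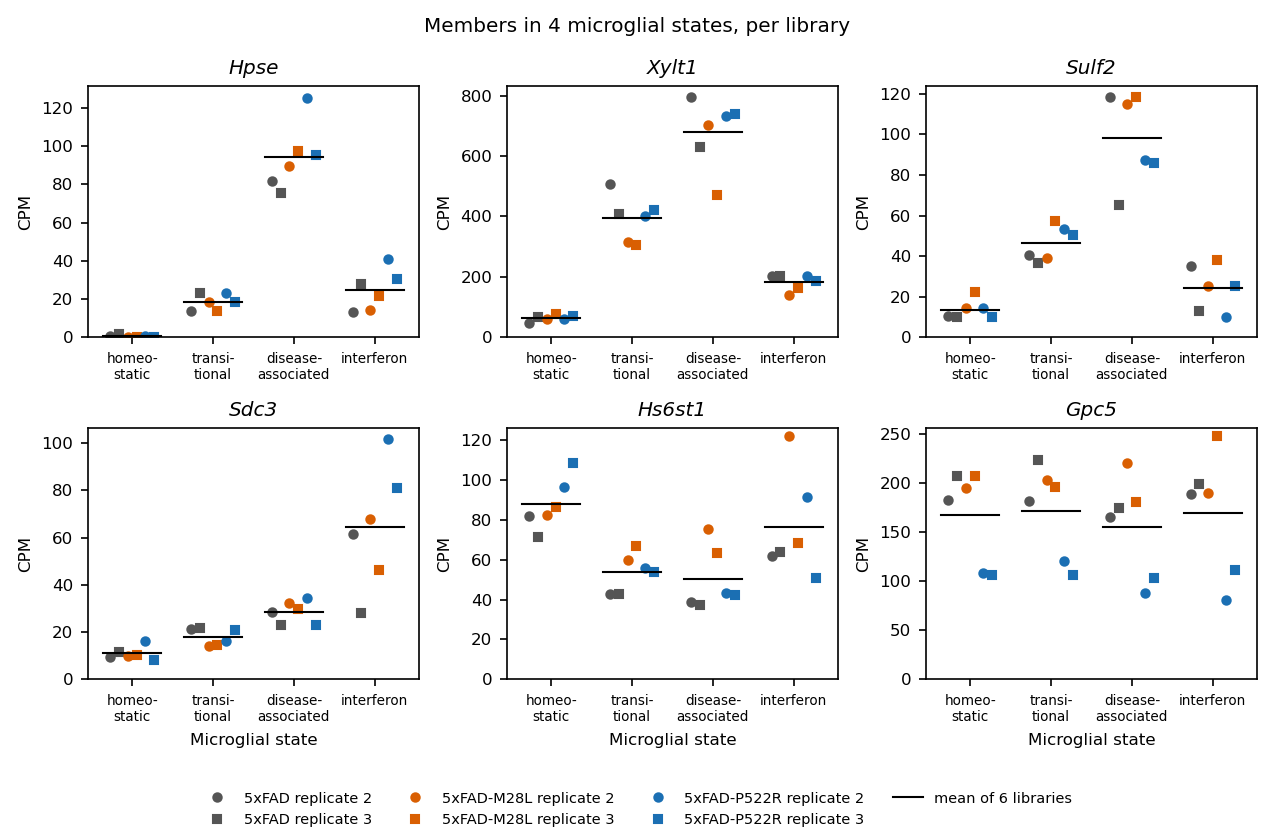
Level in CPM (vertical axis) of 6 members in 4 microglial states (horizontal axis), with a point per library coloured by group and a line at the mean of 6 libraries. Hpse, Xylt1 and Sulf2 are highest in disease-associated microglia in every library, Hs6st1 is lower there than in homeostatic microglia, and Gpc5 is lower in P522R in each state.

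Genes around the pathway were read from lists of the other sugar enzymes, lysosomal enzymes, growth factors and receptors, leaving out state markers and genes under 60 UMIs, and their counts stand beside the same 14.2% and 13.5% of all genes. Of 7 FGF ligands and receptors, 3 (42.9%) were higher in disease-associated microglia in all 6 libraries, all of them ligands or homologues: Fgf1 (10.2 ± 2.47 to 100.2 ± 9.66 CPM), Fgf2 (10.2 ± 1.88 to 122 ± 16.2) and Fgf13 (762 ± 34.8 to 5141 ± 1157), an intracellular homologue that is not secreted. FGF1 and FGF2 need heparan sulfate to bind their receptors. Among the lysosomal enzymes that degrade the chain, Gusb was higher in all 6 libraries (127 ± 13.8 to 256 ± 33.1 CPM) and Ids was lower in all 6. Of 14 chondroitin and dermatan sulfate enzymes, 4 (28.6%) were higher, among them Chst11 (193 ± 19.9 to 606 ± 75.9) and Chst3 (1.29 ± 1.65 to 17.6 ± 8.82), and 5 (35.7%) lower, among them the polymerase Chsy1 (176 ± 17.5 to 102 ± 13.9). Of 11 heparan sulfate binding receptors and ligands, 2 (18.2%) were higher (Mdk, and Nrp1 at 292 ± 26.7 to 1175 ± 206) and 4 (36.4%) lower. Of 10 genes for sugar and sulfate donors only Uxs1 was higher, and none was lower.

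Few members differed between the groups. UMIs summed per library and type were tested with edgeR's quasi-likelihood test over all genes, with Benjamini-Hochberg adjustment within each type and contrast, and were called at an adjusted p under 0.05. Of the 40 members, 39 passed the filter on low counts in at least 1 type (Sdc1 in none), which gave 324 pairs of member and type per contrast. In M28L against 5xFAD 1 pair was called (0.309%, where 0.0024% of the 125170 pairs of all genes were), in P522R against 5xFAD 3 (0.926%, against 0.0423%) and in P522R against M28L 3 (0.926%, against 0.00959%). In all 7 the group named first was lower, and 6 of the 7 were Gpc5. Unadjusted p-values under 0.05 were given by 35, 44 and 49 pairs (10.8%, 13.6% and 15.1%), against 7.36%, 8.99% and 6.56% of all genes. The members' median log2 difference was 0.08, 0.10 and -0.00 over their pairs. In both contrasts with 5xFAD, which share the 5xFAD libraries, the members' median lay above that of all genes in 11 of 11 types (0.01 to 0.15 and 0.02 to 0.26), and in P522R against M28L in 6 of 11 (-0.07 to 0.12). The 11 types share the same libraries and many members, so these counts of types are not independent observations.

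Gpc5 was lower in P522R in 3 tested types, none of them the types that express it most. Its level in microglia was known from earlier work on these libraries and is given without a test: 173 and 190 CPM in 5xFAD, 198 and 199 in M28L and 97.9 and 85.9 in P522R. The 2 P522R libraries lay below the other 4, and did so in each of the 4 microglial states. The other types come from the same libraries and are not independent of that result.

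In oligodendrocytes Gpc5 was at 174 and 186 CPM in 5xFAD, 188 and 176 in M28L and 106 and 107 in P522R. The P522R values were lower than the rest, with a log2 difference from 5xFAD of -0.77 (SE 0.07, adjusted p = 0.0252, edgeR) and from M28L of -0.80 (SE 0.07, adjusted p = 0.0235), where 0.0465% and 0.0199% of the type's 15053 genes were called lower. M28L and 5xFAD differed by 0.04 (adjusted p = 0.856). The contrast with 5xFAD was no longer called without P522R replicate 2 (adjusted p = 0.295) or 3 (0.495) or M28L replicate 3 (0.053), nor that with M28L without any library of those 2 groups (0.126 to 0.728). Clustering at a finer resolution also ended both calls (0.190 and 0.545), the first was lost in a fit of only the 4 libraries compared (0.0534) and the second with the members among the clustering genes (0.0516).

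In astrocytes, which hold the most Gpc5, the levels were 11372 and 11816 CPM in 5xFAD, 11588 and 11319 in M28L and 10724 and 9160 in P522R. The log2 difference of P522R from 5xFAD was -0.31 (SE 0.09, adjusted p = 0.333) and was not called. P522R replicate 3, the lowest, had 28.6% of its astrocytes in the Gfap-led cluster with little Gpc5, against 13.3% to 18.5% in the other 5 libraries. Oligodendrocyte precursors had 5176 to 5491 CPM in all 6 libraries, with log2 differences of -0.05 (adjusted p = 0.739) and -0.02 (0.977) from 5xFAD and M28L.

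Gpc5 RNA in a library as a whole also differed. Over all nuclei it was at 2710 and 2442 CPM in 5xFAD, 2161 and 1817 in M28L and 1331 and 1025 in P522R. The level in oligodendrocytes was 6.41% and 7.60%, 8.70% and 9.66%, and 7.93% and 10.4% of it in the same order, and in microglia 6.40%, 7.78%, 9.14%, 10.9%, 7.36% and 8.38%, so that the P522R libraries did not stand apart on this ratio. The 10 astrocyte markers together moved with it in both types: 353 and 345 CPM in 5xFAD, 369 and 313 in M28L and 236 and 231 in P522R in oligodendrocytes, and 536 and 526, 556 and 614, and 395 and 360 in microglia. Of these 10 markers, 8 were lower in both P522R libraries than in the other 4, in each type, and none was at 0 in any library, whereas they summed to 15401 to 17385 CPM in astrocytes. The part of RNA from astrocytes in the Gpc5 difference was not tested.

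**Figure D4:**
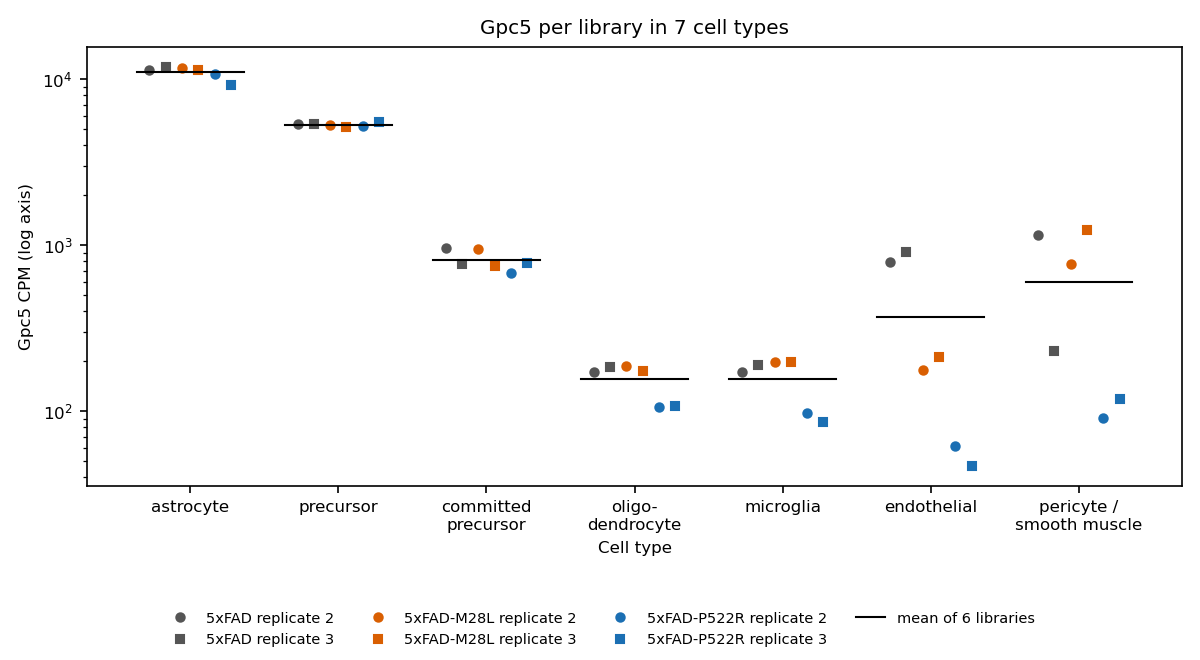
Gpc5 level in CPM on a log axis (vertical) in 7 cell types (horizontal), with a point per library coloured by group and a line at the mean of 6 libraries. P522R lies below both other groups in oligodendrocytes, microglia and vessel types, while precursors hold 5176 to 5491 CPM in all libraries.

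In vessel cells the differences were larger and rested on few nuclei. Endothelial Gpc5 was at 791 and 912 CPM in 5xFAD, 178 and 213 in M28L and 61.5 and 46.9 in P522R. The 3 groups did not overlap. The log2 difference was -2.10 (SE 0.21, adjusted p = 0.00439, edgeR) for M28L against 5xFAD and -3.94 (SE 0.26, adjusted p = 6.8e-05) for P522R against the same libraries, where 0.0244% and 0.0244% of 8209 genes were called lower, and -1.84 (adjusted p = 0.190) for P522R against M28L. The M28L call was lost without M28L replicate 2 (adjusted p = 0.133) or 3 (0.056). Of the 154 and 73 endothelial nuclei in 5xFAD, 5 and 3 carried 15 or more UMIs of oligodendrocyte precursor markers and held 84.4% and 87.6% of the Gpc5 UMIs. In M28L 2 of 83 and 2 of 65 held 35.9% and 44.4%, and in P522R 2 of 54 and 0 of 24 held 4.76% and 0%. Without those nuclei the levels were 134 and 166, 121 and 170, and 65.7 and 46.9 CPM, and the log2 differences from 5xFAD were -0.03 (adjusted p = 1.0) and -1.36 (adjusted p = 0.942).

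In pericytes and smooth muscle Gpc5 was at 1157 and 231 CPM in 5xFAD, 765 and 1238 in M28L and 91.2 and 118 in P522R. Both P522R libraries were below the other 4, and 5xFAD replicate 3 was far below replicate 2. The log2 difference of P522R was -2.83 (SE 0.54, adjusted p = 0.0468, edgeR) from 5xFAD and -3.31 (SE 0.54, adjusted p = 0.0238) from M28L, where 0.0489% and 0.114% of 6141 genes were called lower. Nuclei rich in precursor markers, 4 of 140 and 0 of 97 in 5xFAD, 2 of 85 and 5 of 69 in M28L and 0 of 73 and 0 of 35 in P522R, held 77.1% and 0%, 67.0% and 85.4%, and 0% and 0% of the Gpc5 UMIs. Without them the levels were 297 and 231, 271 and 219, and 91.2 and 118 CPM. The difference from 5xFAD was then -1.43 (adjusted p = 0.0222) and that from M28L -1.32 (adjusted p = 0.152). Without 5xFAD replicate 2 the first was -1.25 (adjusted p = 0.114), and it was also lost without P522R replicate 2 (0.119), with RLE size factors (0.0577) and with only the 4 libraries compared (0.172). DESeq2 called neither (0.781 and 0.345), nor did edgeR with called doublets kept (0.343 and 0.108) or a minimum count of 50 (0.330 and 0.386). The 8 precursor markers together were at 1293 and 564 CPM, 983 and 1729, and 573 and 507 in pericytes and at 559 and 683, 405 and 428, and 401 and 349 in endothelial cells. Of these 8, Pdgfra and C1ql1 were at 0 in some endothelial library and C1ql1 in some pericyte library, and in precursors they summed to 18102 to 19129 CPM.

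**Figure D5:**
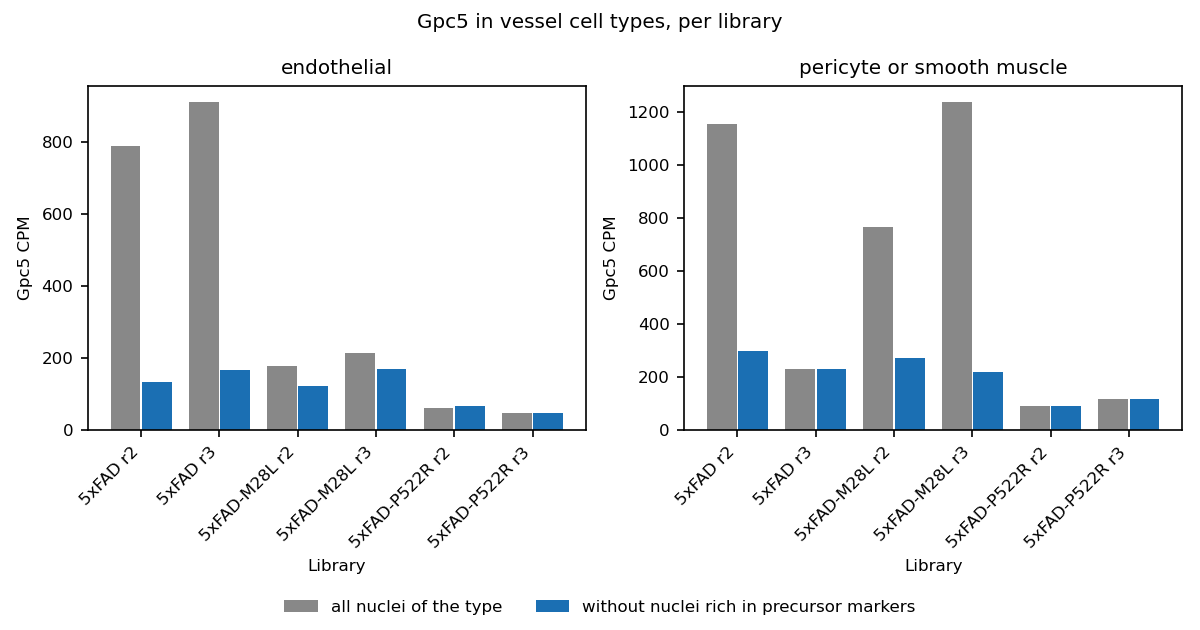
Gpc5 level in CPM (vertical axis) in endothelial cells (left) and pericytes or smooth muscle (right) of each library (horizontal axis), for all nuclei of the type (grey) and without nuclei that carry 15 or more UMIs of oligodendrocyte precursor markers (blue). The grey bars of 5xFAD in endothelial cells, 791 and 912, shrink to 134 and 166, and the P522R bars are the lowest in both settings.

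Xylt1 in pericytes was the 1 call outside Gpc5. It stood at 90.0 and 50.3 CPM in 5xFAD, 112 and 285 in M28L and 31.5 and 34.7 in P522R, from 5 to 79 UMIs per library. M28L replicate 3 was far above the rest. P522R was lower than M28L by a log2 difference of -2.58 (SE 0.49, adjusted p = 0.0435, edgeR), and -1.79 without M28L replicate 3 (adjusted p = 0.325). The call was also lost without P522R replicate 2 (0.229), with doublets kept (0.481) and with DESeq2 (0.0842). Without nuclei rich in precursor markers the difference was 0.10 (adjusted p = 0.995). Xylt1 was, like Gpc5, abundant in precursors themselves.

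The members with the next smallest p-values were not called. Hs3st4 in excitatory neurons, at 906 and 894 CPM in P522R, was above the other 4 libraries, by a log2 difference of 0.28 from 5xFAD (SE 0.07, adjusted p = 0.397) and 0.46 from M28L (SE 0.07, adjusted p = 0.525). Cluster 22, which holds most Hs3st4, made up 22.2% and 27.9% of excitatory nuclei in P522R, 20.2% and 23.6% in 5xFAD and 19.1% and 24.7% in M28L. Hs6st3 in committed precursors was at 30.4 and 14.9 CPM in 5xFAD, 82.1 and 94.6 in M28L and 48.2 and 23.1 in P522R, a log2 difference of 2.01 for M28L (SE 0.37, adjusted p = 0.350). Xylt1 in pericytes gave 1.43 for M28L against 5xFAD (SE 0.39, adjusted p = 0.899) and in endothelial cells -2.14 for P522R against 5xFAD (SE 0.42, adjusted p = 0.290). Without nuclei rich in precursor markers these became -0.39 and 0.29.

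In microglia as a whole, some members were read beside the share of the disease-associated state. Of the 7 members higher in that state in all 6 libraries, these were Hpse, Xylt1 and Sulf2, and Sdc3, Ext1, Ndst1 and Ndst2 are not given here. Hs3st1, higher in 5, was added. The choice rests on states of the same nuclei. The disease-associated state made up 11.98% and 35.8% of microglia of named states in 5xFAD, 10.7% and 13.1% in M28L and 37.4% and 38.7% in P522R. Hpse was at 14.3 and 38.7 CPM, 18.6 and 22.1, and 53.7 and 37.4 in the same order, and 5xFAD replicate 3 overlapped P522R. Its log2 difference between P522R and M28L was 1.12 (SE 0.40, adjusted p = 0.283), and that of Xylt1 0.67 (SE 0.23, adjusted p = 0.271). Sulf2, at 33.3 and 44.6 CPM in 5xFAD, 38.2 and 55.1 in M28L and 58.6 and 71.1 in P522R, differed by 0.75 between P522R and 5xFAD (SE 0.23, adjusted p = 0.367). Hs3st1 differed by 1.44 between P522R and M28L (SE 0.39, adjusted p = 0.193). None of these passed the threshold in the fit by group. Markers of oligodendrocytes, which held 86.9 CPM of Hs3st1 and 179 of Sulf2, also moved with these values: the 10 markers summed in microglia to 980 and 1078 CPM in 5xFAD, 736 and 902 in M28L and 1456 and 3054 in P522R, against 12377 to 13503 in oligodendrocytes. Of the 10, 9 were higher in both P522R libraries than in the other 4, and none was at 0. These microglia included 543 nuclei of a subcluster left unnamed, led by Mapt and Zfp536, with a median of 7559 UMIs. Oligodendrocyte markers summed to 556 to 802 CPM in homeostatic and 501 to 732 in disease-associated microglia, which exclude those nuclei. They reached 530 to 793 in transitional and 572 to 867 in interferon-responsive nuclei. A fit without the unnamed nuclei was an alternative whose values are not given here. The part of the state shares and of oligodendrocyte RNA in the differences was otherwise not tested.

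Of the other pathway genes, 78 in 7 lists passed the filter in at least 1 type, giving 665 pairs per contrast. None was called in M28L or P522R against 5xFAD (72 and 111 had an unadjusted p under 0.05, and DESeq2 called 1 and 9) and 1 in P522R against M28L. That was Ptprz1, a receptor phosphatase that carries chondroitin sulfate and is itself a marker of oligodendrocyte precursors, lower in pericytes by -2.71 (SE 0.52, adjusted p = 0.0435, edgeR), with 0 calls once nuclei rich in precursor markers were left out. Unadjusted p-values under 0.05 in P522R against 5xFAD ran in different directions by list, beside 8.99% of the pairs of all genes. Of 79 pairs of chondroitin sulfate proteoglycans 26 had one (32.9%), 4 of them higher in P522R, with a median log2 difference of -0.14 over the list. FGF ligands and receptors had 18 of 88 (20.5%), 4 of them higher, and a median of -0.16. Lysosomal enzymes that break down heparan sulfate had 10 of 87 (11.5%), a share near that of all genes, all 10 higher, and a median of 0.22. Heparan sulfate binding receptors and ligands had 32 of 152 (21.1%), 13 of them higher. Chondroitin and dermatan sulfate enzymes had 15 of 129 (11.6%), 10 of them higher. Sugar and sulfate donors had 8 of 111 (7.21%), 4 higher, and the linkage kinase and core regulators 2 of 19 (10.5%), 2 higher. None of these pairs was called. The part of RNA from other cell types in them was not tested.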

How the data were processed

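Nuclei from 7.5-month cortex were sorted as NeuN-negative and run on 10x Genomics 3' v3 chemistry, per the labels' protocols. The authors deposited unscaled UMI counts for every gene and nucleus. Cell Ranger 6.1.2 and the mm10 build come from the submitters' processing notes, but in the header of P522R replicate 3 the version is 5.0.1. Whether intronic reads were counted is not given in the sources used here. The filter asked for 500 UMIs, 300 genes and no more than 5% of UMIs from mitochondrial genes, which 62651 of 62687 barcodes met. Scrublet doublets (2566, above a score of 0.311, the median automatic threshold of 4 libraries, since the other 2 had under 0.5% marked) were removed after clustering. Clustering used scanpy 1.11.5 with 2000 variable genes without the members, 30 components, 20 neighbours and Leiden resolution 1. Clusters were named where at least 3 markers and a share of 0.4 (0.25 for neurons) were raised, and microglia were clustered again at resolution 0.5. These bounds, the floor of 100 CPM for a cluster's first 10 genes and the minimum of 60 UMIs for states were set after the data were seen. UMIs were summed per type and library with at least 20 nuclei.

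Sums were tested with edgeR 4.0.16 (filterByExpr, minimum count 10, TMM, quasi-likelihood test, two-sided, Benjamini-Hochberg, R 4.3.3), all 6 libraries in a fit by group. DESeq2 1.42.0 was an alternative. The scripts were tested on simulated data. Labels do not say whether libraries come from separate animals, so p-values measure only the spread between these libraries. Called members were named, and otherwise the 3 members per contrast with the smallest p, save for the microglial members read beside the state shares. The members, lists and tests were chosen with earlier results of these data known.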

Additional observations from a re-analysis of the deposited data

How the results depend on the processing

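The counts of called members (1 for M28L against 5xFAD, 3 for P522R against 5xFAD, 3 for P522R against M28L, in this order below) kept the size of the main analysis, within 1.5 times, with RLE size factors, at least 1000 UMIs per nucleus and members among the variable genes. They became 8, 26 and 19 with no low-count filter, where lowly counted genes entered. DESeq2 gave 5 for P522R against M28L, a minimum count of 50 gave 1 and doublets kept gave 1 there, the 4 compared libraries alone gave 1 for P522R against 5xFAD, and Leiden resolution 2 gave 2 for M28L against 5xFAD. Leaving out a library gave 0 to 3, 2 to 4 and 1 to 3. Leaving out vessel nuclei rich in precursor markers, an alternative chosen after seeing the data, gave 0 for M28L against 5xFAD and 1 for P522R against M28L, and turned Xylt1 to -0.39 and 0.10 in pericytes and 0.29 in endothelial cells. Other pathway genes (0, 0 and 1) became 1, 9 and 6 with DESeq2, 31, 47 and 41 with no filter, and for P522R against M28L 0 with a minimum count of 50, 2 with 4 libraries, 0 with doublets kept and 0 without those vessel nuclei; leaving out a library gave 0 to 5, 0 to 8 and 0 to 9. The number of members whose highest type was at least 4 times the next stayed 1. With a library left out, members of 1 direction in microglial states numbered 9 to 14. Agreement was then asked of fewer libraries and no minimum of UMIs was applied, so this number could not fall. The causes of these changes were not tested. The vessel alternative removes nuclei by precursor markers, and Gpc5 and Xylt1 are abundant in precursors. It therefore tends to lower both genes by its design and tests no cause.

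The libraries are numbered 2 and 3 in each group, which makes 2 numbers only and does not establish a pairing. Deviations of same-numbered libraries nevertheless correlated positively between groups in each of 4 types examined. The coefficients were 0.39 to 0.48 in oligodendrocytes, 0.29 to 0.38 in oligodendrocyte precursors, 0.19 to 0.41 in microglia and 0.01 to 0.27 in astrocytes. With the number as a replicate block, 7, 9 and 4 members and 16, 21 and 10 other pathway genes were called. For M28L against 5xFAD the 6 added calls were in the oligodendrocyte lineage: Sulf2 (0.59, adjusted p = 0.00568, edgeR), Ext2, Extl3 and Hs6st1 in oligodendrocytes and Agrn and Extl3 in precursors. Replicate 3 had more Sulf2 in oligodendrocytes than replicate 2 in each group. For P522R against 5xFAD 7 were added: Gpc1, Hs6st1 and Sdc4 in oligodendrocytes, Agrn and Extl3 in precursors, Hs3st4 in excitatory neurons (0.28, adjusted p = 0.0488, edgeR) and Sulf2 in microglia (0.76, adjusted p = 0.0481). Gpc5 in pericytes was lost (adjusted p = 0.0793). For P522R against M28L Gpc6 in oligodendrocytes and Hs3st1 in microglia (1.39, adjusted p = 0.0436) were added, and Xylt1 in pericytes was lost (adjusted p = 0.0642). Vessel results rest on 24 to 154 endothelial and 35 to 140 pericyte nuclei per library.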
